A study of Mus musculus with 7 samples.

Results

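The 33 genes described here are carried by the cells that line blood vessels, and code for their surface proteins, junctions and vessel-typical signalling, enzyme and secreted proteins. They were taken from a named list of 34 genes that was proposed with earlier results of these data known. From that list a gene entered by annotation alone, where the array has a probe set annotated to its symbol and no other. Tspan7 had no such probe set and was not analysed here. The 33 genes are read by 57 probe sets, out of 18193 genes and 45037 probe sets tested. The arrays came from skin at the wound edge of C57BL/6 mice on day 5 after wounding, from 7 mice with 1 array each: 3 of genotype MFG-E8 WT, numbered 2, 3 and 4, and 4 of genotype MFG-E8 KO, numbered 8, 10, 11 and 12. MFG-E8 is a secreted glycoprotein that helps phagocytes take up apoptotic cells. The age and sex of the mice, the way the KO allele was made and any litter or hybridisation batch are not given in the sources used here. KO was compared with WT to ask whether vessel lining genes at the wound margin depend on genotype. Nothing in the labels says more on how the animals were sampled, so p-values measure the spread between these 7 arrays.

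Endothelial cells hold together through VE-cadherin, claudin-5 and PECAM-1, carry a sugar-rich coat of sialomucins towards the blood, and sense growth factors, TGF-beta family ligands and flow. In a healing skin wound new capillaries sprout from vessels at the margin and fill the granulation tissue, and many are pruned once the wound has closed. Arteries, capillaries and veins share most of the genes below, while a few mark 1 vessel type, such as the arterial ligand ephrin-B2 and its venous receptor EphB4.

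All values are log2 values from which the submitters had subtracted 1 baseline per probe set, so a single value shows only whether an array lies above or below that baseline, and differences are given as KO minus WT. A gene's value averages those of its probe sets that lie in its highest level band, a coarse level read from the rounding of the stored numbers. By that band 12 of the 33 genes lay at 8 or above on the log2 scale and 20 lay between 4 and 8, while Esm1 lay between 2 and 4. The epidermal keratins Krt5, Krt14, Krt1 and Krt10 were all at 8 or above. Mfge8, measured first as a check of the labels, was at 0.91, 0.76 and 1.0 in WT animals 2, 3 and 4, and at -0.64, -0.96, -1.14 and -1.30 in KO animals 8, 10, 11 and 12. The groups lay far apart (difference -1.90, SE 0.16, limma adjusted p = 0.017), although the sources used here do not say which part of Mfge8 was disrupted, nor whether its 1 probe set lies there.

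Vessel genes were lower in the KO arrays. Of the 33 genes, 32 had a lower mean in KO, against 49.1% of all genes, and the median difference was -0.52 on the log2 scale, against 0.0038 over all genes. For 18 genes all KO arrays lay below all WT arrays, which held for 5.13% of all genes. With limma, 23 of the 33 were lower at an unadjusted p under 0.05, against 5.94% of all genes, but after Benjamini-Hochberg adjustment over the 18193 genes 0 of the 33 passed 0.05, and 5 genes (0.0275%) did in all. At an unadjusted p under 0.05, 0 of the 33 were higher, against 2.25% of all genes. The background of lower genes was 5.69% in the level band from 4 to 8 and 7.73% in the band from 8, and at a stricter unadjusted p under 0.01 it was 1.9% of all genes, where 13 of the 33 were lower. The lowest adjusted p among the 33 was 0.0872, for Ecscr. In bulk tissue fewer endothelial cells and less RNA per endothelial cell cannot be told apart, and these values do not separate them. The 33 genes share their 7 arrays and are not independent of each other.

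**Figure D1:**
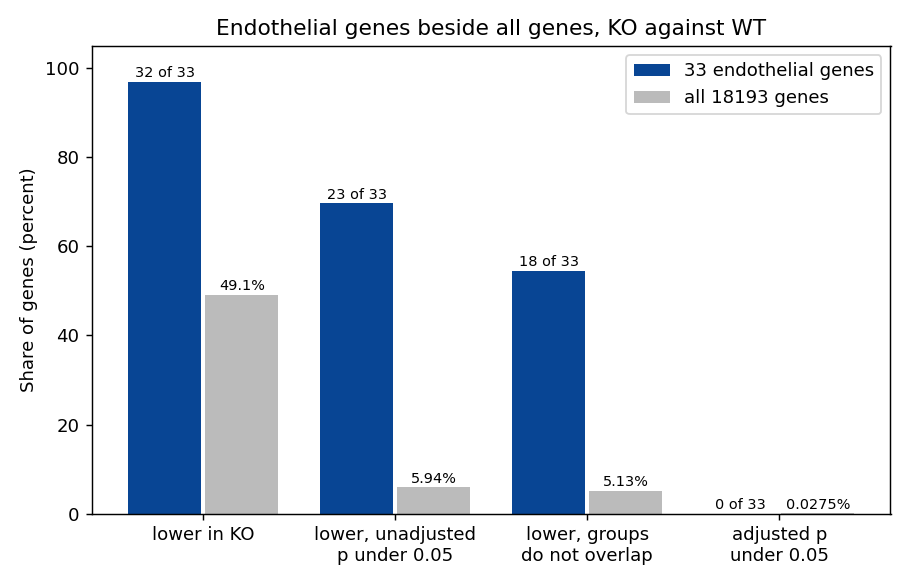
Bars give the percent of genes that meet each of 4 descriptions in KO against WT, for the 33 endothelial genes (dark blue) and all 18193 genes (grey); counts or percents stand above the bars. The endothelial bars reach 32, 23 and 18 of 33 where all genes reach 49.1%, 5.94% and 5.13%, and 0 of 33 passed the adjusted threshold.

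Leaving out any 1 animal, 17 to 24 of the 33 were lower at an unadjusted p under 0.05 (17 without WT animal 3, 18 without KO animal 10), against 3.71% to 7.56% of all genes in the same fits, and 31 or 32 had the lower mean. KO animals 8 and 10 stood apart from the rest in hair follicle genes, with list means of 3.80 and 3.86 against -2.27 to 0.67 in the other 5, and had the lowest skeletal muscle means (-0.91 and -0.69, against -0.32 to 0.48). Without both animals 31 genes were still lower, with a median of -0.38, and 19 did not overlap, against 12.4% of all genes in these 5 arrays. At an unadjusted p under 0.05 there were then 14, against 4.74% of all genes.

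Rasip1, Emcn and Eng, which follow Ecscr in the order of p, are shown with their promoters. ETS family factors are well known regulators of endothelial genes, and their motif was searched to describe the windows. The part of ETS factors in the lower values was not tested. Each window holds 250 bases before and 50 after the start of the gene in RefSeq (build GRCm38.p6), on the strand of the gene. Capitals mark the ETS motif, searched as CAGGAAG and CCGGAAG on both strands. CTTCCTG is CAGGAAG on the opposite strand, and a CCGGAAG match can overlap another on the opposite strand.
Rasip1 (chr7:45627287-45627586, + strand): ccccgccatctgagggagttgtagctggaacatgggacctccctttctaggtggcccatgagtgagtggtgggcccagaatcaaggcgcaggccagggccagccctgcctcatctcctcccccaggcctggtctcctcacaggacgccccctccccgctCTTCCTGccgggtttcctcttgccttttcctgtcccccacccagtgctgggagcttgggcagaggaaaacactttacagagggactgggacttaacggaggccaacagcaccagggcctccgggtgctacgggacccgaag
Emcn (chr3:137340828-137341127, + strand): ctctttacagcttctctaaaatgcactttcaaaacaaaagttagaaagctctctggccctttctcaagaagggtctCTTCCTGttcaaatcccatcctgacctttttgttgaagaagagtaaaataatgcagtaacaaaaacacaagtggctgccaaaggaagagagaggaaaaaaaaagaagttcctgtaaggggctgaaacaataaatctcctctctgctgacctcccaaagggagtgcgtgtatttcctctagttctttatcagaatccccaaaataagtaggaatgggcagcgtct
Eng (chr2:32646345-32646644, + strand): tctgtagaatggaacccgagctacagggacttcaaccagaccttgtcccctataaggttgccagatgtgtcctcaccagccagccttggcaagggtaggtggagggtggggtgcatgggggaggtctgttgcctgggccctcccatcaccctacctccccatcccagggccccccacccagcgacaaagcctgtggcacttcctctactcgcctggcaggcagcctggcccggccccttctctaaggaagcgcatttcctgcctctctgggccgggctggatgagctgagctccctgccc
Rasip1 and Emcn hold 1 match each, whose first base lies 91 and 174 bases before the start, and Eng holds 0. Of the 33 genes, 19 have a window in the table, and 7 of these (36.8%) hold a match: Cd34, Egfl7, Emcn, Rasip1, Rhoj, Robo4 and Ushbp1, each CAGGAAG. Among all genes with a window, 6256 of 27025 (23.1%) hold either motif. A match is a run of letters and not a measured binding site.

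Junction and adhesion genes were lower in all 7 cases, with a median difference of -0.53 (-0.31 without KO animals 8 and 10), and 4 of the 7 did not overlap between groups. Over all genes 49.1% were lower in KO, and 5.13% were lower without overlap. Icam2, an adhesion molecule that endothelium carries without stimulation, was at 0.13, 0.60 and 0.31 in WT animals 2, 3 and 4 and at -0.54, -0.73, -0.44 and -0.13 in KO animals 8, 10, 11 and 12. WT animal 3 was the highest and KO animal 12 the nearest to WT, and the groups lay apart. The Icam2 difference was -0.81 (SE 0.17, limma adjusted p = 0.262), a 1.75-fold lower value. Pecam1, the adhesion molecule PECAM-1 of endothelial contacts, was at 0.15, 0.92 and 0.50 in WT and -0.26, -0.56, -0.15 and -0.15 in KO (difference -0.80, SE 0.19, limma adjusted p = 0.357). Its groups did not overlap, and WT animal 3 lay far above the other WT animals. Esam, a tight junction adhesion molecule, was at 0.092, 0.76 and 0.21 in WT and -0.52, -0.50, -0.18 and -0.092 in KO (difference -0.68, SE 0.19, limma adjusted p = 0.425). KO animals 8 and 10 formed its lower end.

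The cadherin and the claudin of the junction overlapped between groups. Cdh5, the VE-cadherin gene, was at 0.00052, 0.42 and 0.12 in WT and -0.56, -0.46, -0.077 and 0.079 in KO, a difference of -0.43 (SE 0.18). Cldn5, the claudin of endothelial tight junctions, was at -0.049, 0.46 and 0.093 in WT and -0.76, -0.60, -0.13 and 0.049 in KO, a difference of -0.53 (SE 0.22). In both genes KO animals 8 and 10 were the low arrays and KO animal 12 lay within the WT range. Without these 2 animals the differences were -0.18 for Cdh5 and -0.21 for Cldn5. The 2 probe sets of Cdh5 differed in size, at -0.70 (SE 0.16) and -0.17 (SE 0.23).

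Of the 2 connexins of arterial gap junctions, Gja4 (connexin 37) was at 0.25, 0.17 and 0.30 in WT and -0.51, -0.46, -0.29 and 0.15 in KO, a difference of -0.52 (SE 0.17). Its groups did not overlap, but the gap between WT animal 3 and KO animal 12 was only 0.014, the smallest among the 18. Gja5 (connexin 40) was at 0.10, 0.027 and -0.027 in WT and -0.27, -0.15, 0.20 and -0.094 in KO, a difference of -0.11 (95% confidence interval -0.41 to 0.18). KO animal 11 was its highest array. The Gja4 minus Gja5 difference within each array was 0.20 ± 0.11 (SD, n = 3) for WT arrays, and for KO arrays it was -0.20 ± 0.31 (SD, n = 4). The groups overlapped in this contrast, which was chosen after the values were seen and is given as a description without a p-value.

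**Figure D2:**
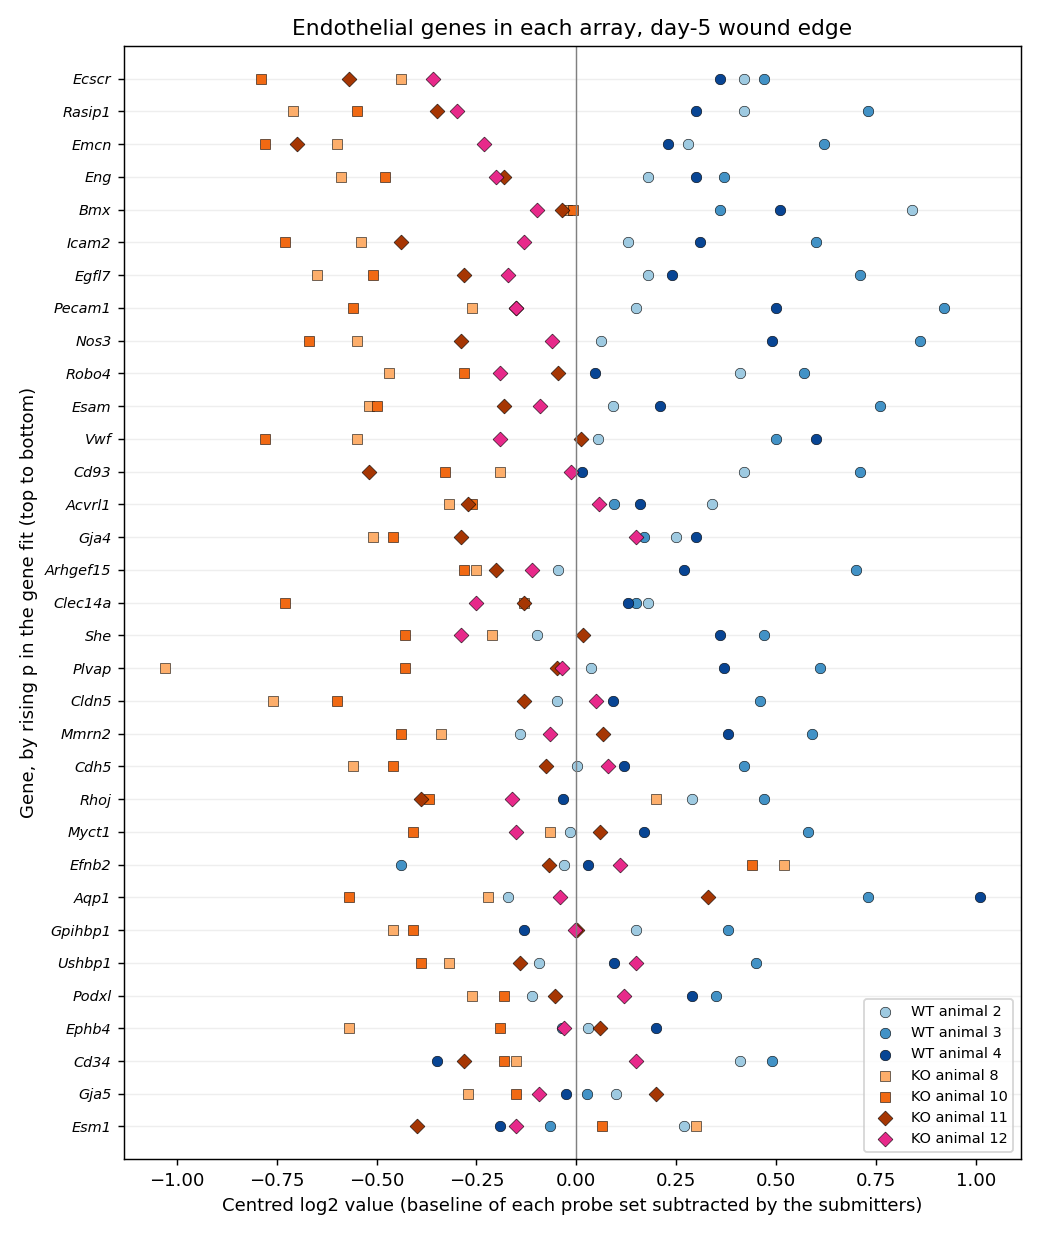
Each row is 1 of the 33 genes and each point 1 array (blue circles WT, orange squares KO animals 8 and 10, a brown diamond KO animal 11, a pink diamond KO animal 12), on the horizontal axis in centred log2 values. Rows are ordered by p: in the upper rows the KO points lie left of all WT points, while Cd34, Gja5 and Esm1 at the bottom are mixed and for Efnb2 KO animals 8 and 10 lie farthest right.

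Genes of the surface coat and of other membrane glycoproteins were lower in all 10 measured cases, with a median difference of -0.53. Of the 10, 6 did not overlap, against 5.13% of all genes. Ecscr, a small receptor of endothelial migration and survival on chromosome 18, had the smallest p of the 33 genes. It was at 0.42, 0.47 and 0.36 in WT and at -0.44, -0.79, -0.57 and -0.36 in KO (difference -0.95, SE 0.12, limma adjusted p = 0.0872). Its gap of 0.72 between the lowest WT and the highest KO array was the widest among the 18. Without KO animals 8 and 10 the Ecscr difference was -0.88 (limma adjusted p = 0.313), with the groups still apart. Emcn, the sialomucin endomucin of capillaries and veins, was at 0.28, 0.62 and 0.23 in WT and -0.60, -0.78, -0.70 and -0.23 in KO (difference -0.95, SE 0.16, limma adjusted p = 0.163). Robo4, a guidance receptor that steadies the vessel wall, was at 0.41, 0.57 and 0.047 in WT and -0.47, -0.28, -0.047 and -0.19 in KO (difference -0.59, SE 0.16, limma adjusted p = 0.398). Robo4 had WT animal 4 close to KO animal 11.

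A receptor family and its shared matrix partner were also lower. Cd93 and Clec14a are C-type lectin-like receptors of one family, and Mmrn2 (multimerin 2) is the matrix protein that both bind. Cd93 was at 0.42, 0.71 and 0.013 in WT and -0.19, -0.33, -0.52 and -0.013 in KO, a difference of -0.65 (SE 0.19). That value rests on 2 of its 5 probe sets, which ranged from -0.71 to -0.029. The mean over all 5 gave -0.41. Clec14a was at 0.18, 0.15 and 0.13 in WT and -0.13, -0.73, -0.13 and -0.25 in KO, a difference of -0.46 (SE 0.16). Mmrn2 was at -0.14, 0.59 and 0.38 in WT and -0.34, -0.44, 0.067 and -0.067 in KO, a difference of -0.47 (SE 0.20). The receptors did not overlap between groups, whereas WT animal 2 put Mmrn2 among the KO arrays. Without KO animals 8 and 10 the differences were -0.65, -0.34 and -0.28.

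Plvap, which builds the diaphragms of fenestrae and caveolae, was at 0.037, 0.61 and 0.37 in WT and -1.03, -0.43, -0.048 and -0.037 in KO. The Plvap value of KO animal 8 was the lowest of any of the 33 genes in any array, and the Plvap difference moved from -0.73 (SE 0.26) to -0.38 without KO animals 8 and 10. Myct1, a small endothelial membrane protein, differed by -0.39 (SE 0.17), and its 4 probe sets ranged from -0.59 to -0.16. Podxl (podocalyxin) differed by -0.27 (95% confidence interval -0.61 to 0.071), with probe sets at -0.49 and -0.052. Cd34, a sialomucin that skin fibroblasts and hair follicle stem cells also carry, was at 0.41, 0.49 and -0.35 in WT and -0.15, -0.18, -0.28 and 0.15 in KO, a difference of -0.30 (95% confidence interval -0.79 to 0.20). WT animal 4 was the lowest array of Cd34. Without it the difference was -0.56 (limma adjusted p = 0.266), whereas leaving out WT animal 2 gave -0.18 and leaving out WT animal 3 gave -0.14. The same animal was low in the 9 fibroblast markers, with a list mean of -0.33 against 0.59 and 0.43 in WT animals 2 and 3. All 9 of those markers had a lower mean in KO (median -0.43, KO arrays from -0.47 to -0.0020), and their part in Cd34 was not tested.

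Among receptors and their ligands 3 of 4 were lower, and 2 did not overlap, against 49.1% and 5.13% of all genes. Eng (endoglin), the co-receptor of BMP9 and TGF-beta on endothelium, was at 0.18, 0.37 and 0.30 in WT and -0.59, -0.48, -0.18 and -0.20 in KO (difference -0.65, SE 0.13, limma adjusted p = 0.256). Acvrl1 (ALK1), the type I receptor that endoglin assists, was at 0.34, 0.095 and 0.16 in WT and -0.32, -0.26, -0.27 and 0.056 in KO, a difference of -0.40 (SE 0.13). Both lay apart between groups, widely so for Eng and narrowly for Acvrl1, where KO animal 12 stood near the WT arrays. The second probe set of Eng gave -0.79 (SE 0.11).

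The arterial and venous pair of ephrin signalling overlapped between groups. Efnb2, which codes for ephrin-B2 on arterial endothelium and is also made by skin epithelium, was the 1 gene with a higher mean in KO. It was at -0.030, -0.44 and 0.029 in WT and at 0.52, 0.44, -0.069 and 0.11 in KO, a difference of 0.40 (95% confidence interval -0.025 to 0.82, limma adjusted p = 0.641). All 4 of its probe sets were on the same side, from 0.085 to 0.40. KO animals 8 and 10, the arrays high in hair follicle genes, were its highest arrays, and without both the difference was 0.17; their part in the result was not tested. Without KO animal 11 Efnb2 was at 0.50, its groups lay apart and its unadjusted limma p was 0.0227 (adjusted p = 0.563). Without WT animal 3, its lowest array, the difference was 0.25. Ephb4, the venous receptor of ephrin-B2, was at 0.030, -0.035 and 0.20 in WT and -0.57, -0.19, 0.059 and -0.030 in KO, a difference of -0.25 (95% confidence interval -0.62 to 0.13). Efnb2 minus Pecam1 within each array was -0.67 ± 0.61 (SD, n = 3) for WT arrays, and for KO arrays it was 0.53 ± 0.43 (SD, n = 4), with the groups apart. Efnb2 was set against Pecam1 and Ephb4 for its direction, so both contrasts are descriptions without a p-value. Efnb2 minus Ephb4 went from -0.21 ± 0.18 (SD, n = 3) to 0.43 ± 0.54 (SD, n = 4) and overlapped.

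Intracellular signalling genes were lower in all 6 cases, with a median difference of -0.49, and 3 did not overlap, against 5.13% of all genes. Rasip1, a Rap1 and Ras effector needed to open the lumen of new vessels, was at 0.42, 0.73 and 0.30 in WT and -0.71, -0.55, -0.35 and -0.30 in KO (difference -0.96, SE 0.15, limma adjusted p = 0.123). Its difference was close to those of Ecscr and Emcn, and it is the only one of the 33 genes on chromosome 7, which also holds Mfge8; the part of that linkage was not tested. Bmx, a Tec family kinase of arterial endothelium, was at 0.84, 0.36 and 0.51 in WT and -0.024, -0.0090, -0.037 and -0.099 in KO (difference -0.61, SE 0.13, limma adjusted p = 0.256). Its 4 KO arrays were nearly level (SD 0.040) while WT animal 2 was the highest, unlike most of the genes above. Without KO animals 8 and 10 Bmx was at -0.64.

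Arhgef15 differed by -0.52 (SE 0.17) without overlap, with probe sets at -0.72, -0.66 and -0.18. Rhoj, a Cdc42-like GTPase of endothelial shape and migration, was at 0.29, 0.47 and -0.033 in WT and 0.20, -0.37, -0.39 and -0.16 in KO, a difference of -0.42 (SE 0.18). Here KO animal 8 lay among the WT arrays, and without animals 8 and 10 the difference was -0.52. The adaptor She differed by -0.47 (SE 0.17), with probe sets at -0.58 and -0.36. Ushbp1, whose product is less well described, differed by -0.33 (95% confidence interval -0.73 to 0.084).

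Of the secreted proteins, Egfl7, an EGF-like factor that endothelium deposits around itself, was at 0.18, 0.71 and 0.24 in WT and -0.65, -0.51, -0.28 and -0.17 in KO (difference -0.78, SE 0.17, limma adjusted p = 0.301). Its 4 probe sets lay close together, from -0.82 to -0.58. Vwf, the von Willebrand factor that endothelium and platelets store and release to catch platelets, was at 0.055, 0.50 and 0.60 in WT and -0.55, -0.78, 0.011 and -0.19 in KO (difference -0.76, SE 0.22, limma adjusted p = 0.43). Both genes separated the groups, Vwf with KO animal 11 just under WT animal 2. Of the platelet and megakaryocyte markers 4 of 8 were lower, against 49.1% of all genes. Their median difference was 0.027, and their list means ran from -0.030 to 0.26 in WT and from -0.18 to 0.15 in KO. The 2 at level 8 or above, Pf4 (-0.49, SE 0.25) and Ppbp (-0.92, SE 0.53), were both lower, with groups that overlapped. The 6 between 4 and 8 ran from -0.21 (Itga2b) to 0.18 (Gp5). The part of platelets in Vwf was not tested. Esm1, an endocan that marks the tips of sprouts, was at 0.27, -0.065 and -0.19 in WT and 0.30, 0.065, -0.40 and -0.15 in KO. Its difference of -0.051 had a 95% confidence interval from -0.48 to 0.38, and the sign turned without WT animal 2 (0.083) and without KO animal 11 (0.067).

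Among enzyme, channel and transport genes, Nos3, the endothelial nitric oxide synthase, was at 0.061, 0.86 and 0.49 in WT and -0.55, -0.67, -0.29 and -0.061 in KO (difference -0.86, SE 0.22, limma adjusted p = 0.357). The groups lay apart, with a wide spread among the WT animals (SD 0.40). Aqp1, a water channel of capillaries and red cells, was at -0.17, 0.73 and 1.01 in WT and -0.22, -0.57, 0.33 and -0.041 in KO, a difference of -0.65 with the largest error of the 33 (SE 0.30). WT animal 2 lay among the KO arrays there, and the difference was -0.99 without it and -0.41 without WT animal 4. Of 4 red cell markers 1 was lower, Alas2 (-2.32, SE 0.60, limma adjusted p = 0.375), and its groups lay apart. Hba-a1 (0.16), Slc4a1 (0.30) and Epb42 (0.011) had a higher mean in KO, with groups that overlapped. Slc4a1 was highest in KO animals 8 and 10 (1.33 and 1.62). The red cell list means overlapped (-0.36 to 0.82 in WT, -0.60 to 0.44 in KO). The part of red cells in Aqp1 was not tested. Gpihbp1, which anchors lipoprotein lipase in capillaries of fat and muscle, was at 0.15, 0.38 and -0.13 in WT and -0.46, -0.41, 0.0025 and -0.0025 in KO, a difference of -0.35 (95% confidence interval -0.76 to 0.052). Without KO animals 8 and 10 it was -0.13. Of 8 adipocyte markers 4 were lower, with a median of -0.035. The skeletal muscle markers were lower in 15 of 15, with a median of -0.54, and KO animals 8 and 10, the lowest arrays of Gpihbp1, were also their lowest arrays (list means -0.91 and -0.69). Their part in the result was not tested.

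**Figure D3:**
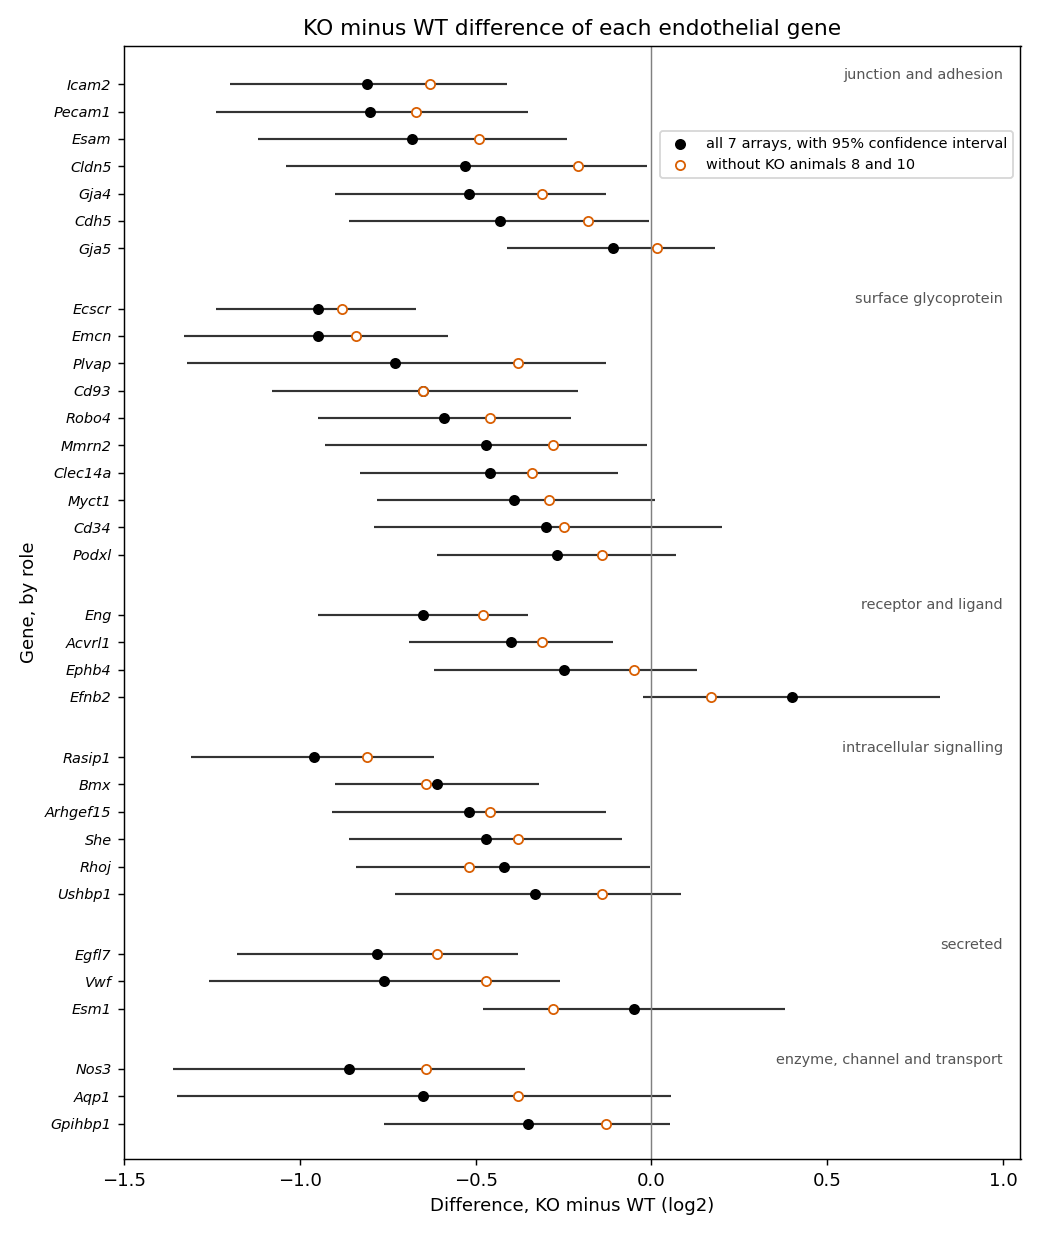
The horizontal axis gives the KO minus WT difference on the log2 scale for the 33 genes, grouped by role; black points and lines are the limma estimate and its 95% confidence interval over 7 arrays, and open orange points the estimate without KO animals 8 and 10. The interval lies below 0 for 23 genes and holds 0 for 10, and the open points of Cdh5, Cldn5, Gpihbp1 and Ephb4 move most of the way to 0.

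The 7 arrays kept a loose order across the genes. WT animal 3 was the highest array for 23 of the 33, while KO animal 8 was the lowest for 14 and KO animal 10 for 13. The median over the 33 genes was 0.13, 0.47 and 0.23 in WT animals 2, 3 and 4 and -0.34, -0.43, -0.14 and -0.094 in KO animals 8, 10, 11 and 12. The KO animals thus formed a lower and a higher pair, both below all WT animals. Probe sets of the same gene agreed in side: for all 12 genes with several, each probe set lay on the same side of 0. Of the 57 probe sets 53 were lower in KO, against 46.8% of all probe sets, and 36 were lower at an unadjusted p under 0.05, against 5.22%; 0 passed an adjusted p of 0.05 over the 45037, where the lowest was 0.0705 (Ecscr). Without WT animal 3, the highest array of most genes, the differences of Arhgef15 (-0.32), Myct1 (-0.22), Gpihbp1 (-0.23) and Ushbp1 (-0.17) were smaller by over 1.5 times. Podxl was at -0.41 without WT animal 2, and Ephb4 at -0.12 without KO animal 8. The standard errors of the 33 differences ran from 0.12 to 0.30, so no order among neighbouring genes can be read from them.

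Other vascular genes, from 6 lists set beside the 33, were lower in KO as well, and with limma 0 genes of these lists passed an adjusted p of 0.05. For the counts here and in the next paragraph, 49.1% of all genes were lower, and 5.94% at an unadjusted p under 0.05. The latter share was 3.71% to 7.56% with 1 animal left out, highest without WT animal 4. It was 4.74% without KO animals 8 and 10. Growth factor and Tie receptors, which receive the VEGF, angiopoietin, apelin and sphingosine signals, were lower in 13 of 14 cases (median -0.54), 10 of them at an unadjusted p under 0.05. The sphingosine receptor S1pr1 differed by -0.84 (adjusted p = 0.0912), the apelin receptor Aplnr by -0.95, the VEGF receptor Flt1 by -0.54 and the adhesion receptor Adgrl4 by -0.59. Endothelial transcription factors were lower in 15 of 18 (median -0.35), 10 at an unadjusted p under 0.05 and 6 without KO animals 8 and 10. Their smallest p values belonged to Ets1 (-0.67), Sox18 (-1.01), Tal1 (-0.70) and the flow-induced Klf2 (-0.60). Erg and Fli1, ETS factors of endothelium, were at -0.37 and -0.57.

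Genes of activated endothelium, which include adhesion molecules that let leukocytes roll and stick, were lower in all 6 cases. Their median was -0.54 (-0.75 without WT animal 2), and 5 were lower at an unadjusted p under 0.05. Lrg1 (-1.21), P-selectin Selp (-1.23), Icam1 (-0.47) and the chemokine-binding Ackr1 (-0.50) had the smallest p, and Selp was highest in WT animal 4 at 1.48. Basement membrane genes were lower in 11 of 12 (median -0.50) and 5 were so at an unadjusted p under 0.05, a count of 3 on leaving out WT animal 2, WT animal 3 or (also singly) KO animal 11, and of 9 without WT animal 4, when the median was -0.67. Col4a1 and Col4a2 (each -0.62), Nid2 (-0.89) and Col15a1 (-0.62) led that list. Pericyte and smooth muscle genes were lower in 10 of 12 (median -0.35; -0.22 without WT animal 3, -0.16 without KO animals 8 and 10), 3 at an unadjusted p under 0.05 and 5 without WT animal 2. They were Pdgfrb (-0.71), Mcam (-0.60) and Acta2 (-0.37), followed by Abcc9 (-0.38). Lymphatic genes were lower in 6 of 7 (median -0.35), and Sema3d was higher (0.30). Pdpn (-0.59), Reln (-0.57) and Lyve1 (-0.77) were lower at an unadjusted p under 0.05, with Flt4 (-0.35) next. The lymphatic regulator Prox1 was at -0.11. Without WT animal 2, 5 of 7 were lower (median -0.24). The count lower at that threshold was 1 without WT animal 4, and 1 without KO animals 8 and 10. Without KO animals 8 and 10, 1 lymphatic gene was also higher at that threshold, with groups apart (0.56).

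Markers of other cells were read in the same arrays. All 10 monocyte and macrophage markers had a lower KO mean (median -0.43; list means 0.050 to 0.37 in WT and -0.48 to -0.058 in KO), and Pecam1 is carried by such cells too. Neutrophil markers were lower in 6 of 6 (median -0.49; 0.17 to 0.95 in WT and -0.38 to 0.19 in KO) and mast cell markers in 7 of 8 (median -0.52; -0.071 to 0.66 in WT and -0.48 to 0.25 in KO). With limma, 5 of 10 monocyte and macrophage, 2 of 6 neutrophil and 4 of 8 mast cell markers had an unadjusted p under 0.05. Over all genes 5.94% were lower at that threshold, and 49.1% at any size. Csf3r (-1.01, limma adjusted p = 0.107), Itgam (-1.36, 0.196) and Cxcr2 (-0.95, 0.256) had the smallest p among these markers. Skeletal muscle genes were lower in 15 of 15 (median -0.54), hair follicle genes in 0 of 14 (median 2.41), keratinocyte genes in 6 of 9 (median -0.053) and Schwann cell genes in 3 of 5 (median -0.024). At the same threshold the counts were 1, 0, 0 and 1. Except for the monocyte and macrophage list and the Schwann cell list, these list means overlapped between groups. Those of the 33 vessel genes did not (0.15 to 0.45 in WT and -0.41 to -0.082 in KO). Among the vascular lists, basement membrane means overlapped (-0.15 to 0.44 in WT and -0.56 to -0.12 in KO). So did pericyte and smooth muscle means (-0.0093 to 0.32 in WT and -0.28 to 0.14 in KO). The part of other cells in the vessel gene values was not tested.

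**Figure D4:**
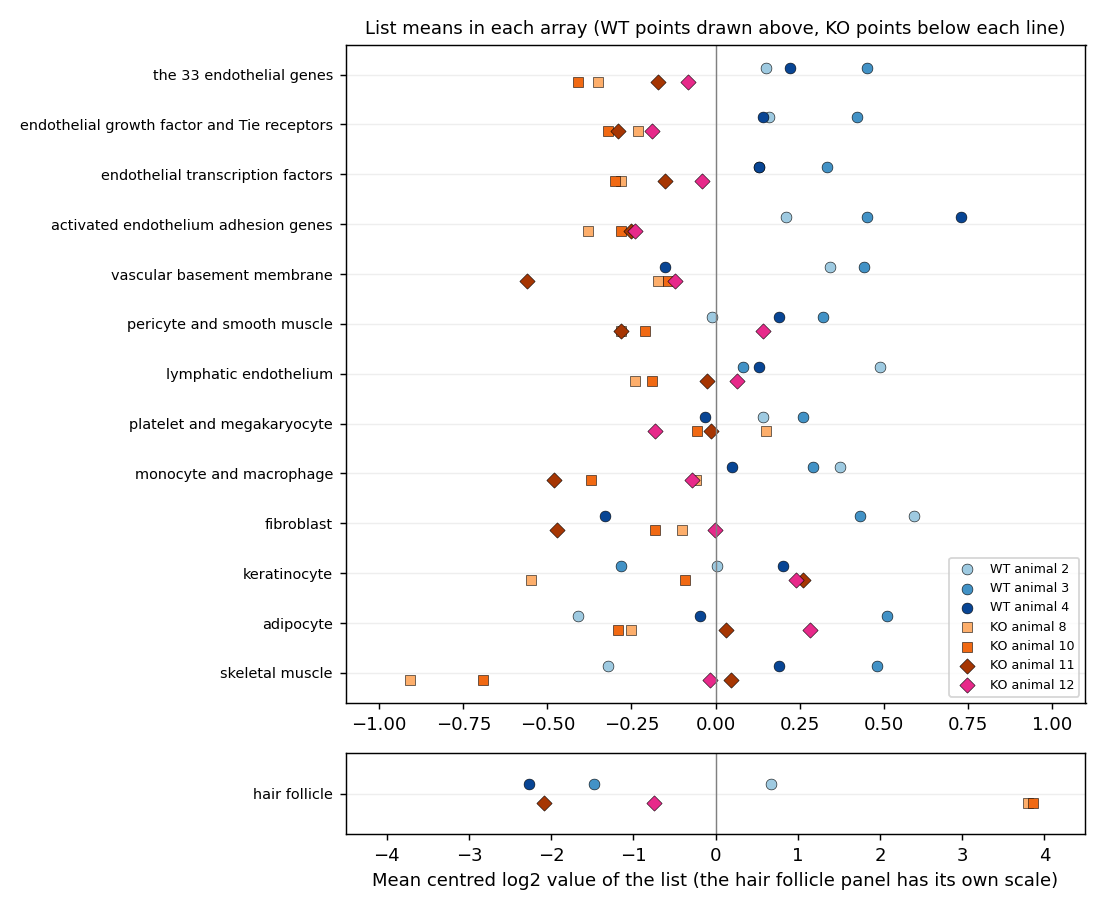
Each point is the mean centred log2 value of a gene list in 1 array, with WT arrays drawn above and KO arrays below each line; the hair follicle list has its own scale. The 33 endothelial genes, the first 3 vascular lists, the lymphatic list and the monocyte list separate WT from KO. The basement membrane, pericyte, platelet, fibroblast, keratinocyte, adipocyte and skeletal muscle lists do not. KO animals 8 and 10 lie far to the right for hair follicle genes.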

How the data were processed

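RNA of 7 animals was read on 1-colour biotin-labelled arrays, 1 array each; the number of arrays limits the precision. The authors deposited log2 values made with GCRMA (per the submitters' processing notes; version and log base are not given in the sources used here, and base 2 was taken). A per-probe-set baseline had been subtracted: 72.5% of probe sets hold a middle pair mirrored around 0 (tolerance 1e-06). A median over an even number of arrays leaves such a pair, and 7 arrays are given here. Which arrays the baseline was taken over is not stated in the sources used here. The baseline cancels in KO minus WT. Of 45101 probe sets 64 controls were left out; 34945 of the rest carry 1 symbol, 932 several and 9160 none. Rounding steps gave level bands (26.4% at 8 or above, 54.3% from 4 to 8, 19.4% from 2 to 4).

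Gene values (means over probe sets of the highest band) of 18193 genes were fitted with limma 3.58.1 (lmFit, eBayes; R 4.3.3) without covariates, adjusted over all genes; the fit was tested on simulated data. Contrasts of 2 genes within an array were chosen after their values were seen, so the permutation p-values computed for them are not given. Every gene with its own probe set is named, the 12 with the smallest p with all arrays, and up to 4 genes per vascular list by p; arrays of other genes were added after their values were seen. The genes and lists were chosen with earlier results of these data known. Promoters came from RefSeq (GRCm38.p6). Figures used matplotlib 3.10.9.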

Additional observations from a re-analysis of the deposited data

Results flagged for a closer look

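For Acvrl1 the value of KO animal 12 was 0.056, far from the other 3 KO arrays (-0.32, -0.26 and -0.27), with a gap of 0.861 of the group's range. It was the only one of 34 genes (the 33 and Mfge8) in which 1 KO array stood so far from the rest; about 1 in 20 groups of 4 would do so by chance.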

How the results depend on the processing

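Over 16 alternatives (2 scalings, 3 variance models or weights, 3 probe set rules or level filters, each animal left out, and KO animals 8 and 10 left out together), 516 of 521 gene differences kept their side of 0 and of the threshold. Because 0 of the 33 passed that threshold to begin with, this count describes the sign and not the size. Without KO animals 8 and 10, Cdh5 moved from -0.43 to -0.18 and Ephb4 from -0.25 to -0.049. Array weights brought 2 genes past an adjusted p of 0.05, Ecscr (-1.08, adjusted p = 0.0287) and Rasip1 (-1.01, adjusted p = 0.0326); these weights gave KO animal 10 a weight of 3.38 against 0.427 to 0.844 for the other KO animals, and 32 of all genes passed (0.176%). At an adjusted p under 0.1 and 0.2 the numbers were 1 and 3, against 15 (0.0824%) and 46 (0.253%) of all genes. The side turned for Gja5 without KO animals 8 and 10 (0.017) and for Esm1 without WT animal 2 (0.083) or KO animal 11 (0.067), over a range of -0.17 to 0.083 when single animals were left out; the cause was not tested. The number lower at an unadjusted p under 0.05 was 14 without KO animals 8 and 10 and 13 at a threshold of 0.01. Leaving out each animal in turn, it ran from 17 to 24 (3.71% to 7.56% of all genes), the number with groups that do not overlap from 18 to 25 (6.07% to 11.9% of all genes, a share that is higher with fewer arrays), the number lower from 31 to 32 and the median difference from -0.63 to -0.46, while 0 passed the adjusted threshold. No paired analysis was possible because the animal numbers of the groups differ.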

Other observations

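Outside the 33 genes, Adgrf5, an adhesion receptor of endothelium and other cells, followed the per-array median of the 33 most closely of all genes (Pearson r = 0.997 over 7 arrays, a description, since the groups lie apart and the best of many genes was taken). It was at 0.15, 0.70 and 0.26 in WT animals 2, 3 and 4 and -0.52, -0.60, -0.25 and -0.15 in KO animals 8, 10, 11 and 12, a difference of -0.75 (SE 0.17, limma adjusted p = 0.313). The next were A530047J11Rik (r = 0.984), B3gnt3 (r = 0.981), Gm15417 (r = 0.979) and Sfrp5 (r = 0.978), with differences of -0.74, -0.68, -0.17 and -0.29.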
